A study of Mus musculus with 4 samples.

Results

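The genes described here are 10 receptors that raise or restrain the activation of lymphocytes: Pdcd1, Ctla4, Tigit, Lag3, Havcr2, Icos, Cd28, Btla, Cd96 and Cd226. They were chosen by gene name, and each matched 1 of the 53379 genes in the deposited table. RNA was sequenced from group 3 innate lymphoid cells (ILC3s) of mixed bone marrow chimeras. The first donors were Rag1-/- Smarca4 f/f with the Thy1.2/1.2 genotype and no Cre. The second donors carried a Cre transgene on the same Rag1-/- Smarca4 f/f background and were Thy1.1/1.2. Their bone marrow was mixed in equal parts and given to sublethally irradiated Rag2-/- Il2rg-/- hosts. Small intestinal cells that were Thy1.2 high and CD45 low were sorted 6 to 7 weeks later by their congenic Thy1.1 marker. The 2 libraries from cells of the first donors are called Brg1-sufficient and the 2 from the second Brg1-deficient, since Smarca4 encodes Brg1, the ATPase of the BAF chromatin-remodelling complex. Both donors lack Rag1 and therefore form no mature T or B cells, and the hosts lack innate lymphoid cells of their own. The sort for ILC3s rested on Thy1 and CD45 levels, with no NKp46 or CCR6 gate. Each library can therefore hold a mix of ILC3 subsets, and other cells with the same levels. The sources used here give neither the age of the mice nor how many hosts went into a library.

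CD28 and ICOS are co-stimulatory receptors, and CTLA-4 is an inhibitory receptor that competes with CD28 for CD80 and CD86. PD-1 (Pdcd1), LAG-3, TIM-3 (Havcr2) and BTLA restrain activation through different ligands. TIGIT, CD96 and CD226 form a group that binds CD155, in which TIGIT inhibits and CD226 activates, while both kinds of action have been described for CD96. All were first studied on T cells and natural killer cells, and several are also carried by innate lymphoid cells, where PD-1 is known from precursors and activated cells and ICOS from group 2 cells.

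In Brg1-deficient ILC3s, 4 of the inhibitory receptor genes, Lag3, Tigit, Ctla4 and Pdcd1, were lower and Cd96 was higher by the looser of the calls used here, which 8.22% of all genes tested passed (4.37% lower, 3.85% higher). The number of members passing it fell from 5 to 2 without Brg1-deficient library 1 and to 0 without library 2. None of the 10 genes passed the stricter one. The summed level of all 10 genes was 707 and 643 FPKM (fragments scaled by transcript length and library size) in the Brg1-sufficient libraries and 724 and 599 FPKM in the Brg1-deficient ones, and these ranges overlapped. What differed was the makeup of that sum. Pdcd1 made up 49.5% and 39.8% of it in Brg1-sufficient ILC3s and 31.7% and 25.99% in Brg1-deficient ILC3s. Cd96 made up 25.2% and 30.2% in Brg1-sufficient ILC3s, and 45.9% and 51.2% in Brg1-deficient ILC3s.

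**Figure D1:**
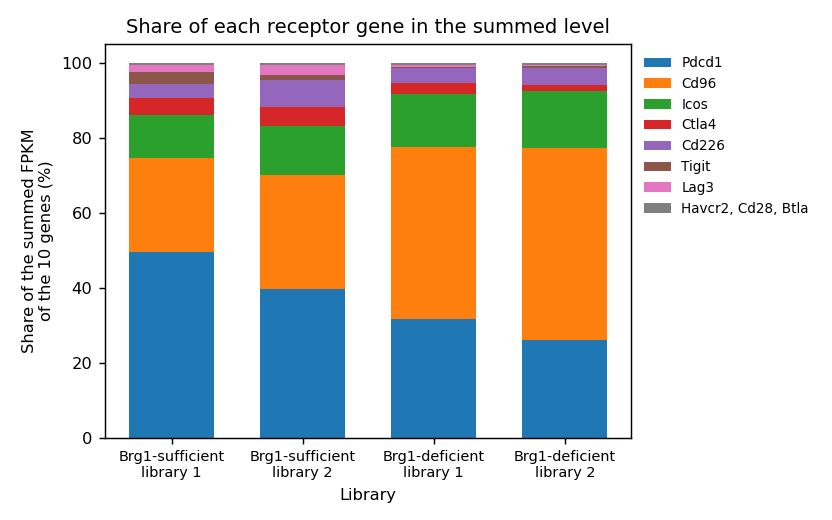
Share of each gene in the summed FPKM of the 10 receptor genes (y axis, percent) in each of the 4 libraries (x axis). Pdcd1 was the largest part in both Brg1-sufficient libraries (49.5% and 39.8%) and Cd96 the largest in both Brg1-deficient libraries (45.9% and 51.2%).

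The calls rest on limma (log2 of FPKM + 1, variance trend), over the 14739 genes with a mean above 1 FPKM in either group. On this scale fold changes of weakly expressed genes come out too small. The stricter call was an adjusted p under 0.05 with Benjamini-Hochberg adjustment over all genes tested. At this level 0 of the 9 members tested passed, against 0.305% of all genes tested (0.224% lower and 0.0814% higher in Brg1-deficient ILC3s). An unadjusted p under 0.05 was reached by 6 members, 5 lower and 1 higher, and by 12.6% of all genes tested, 6.47% lower and 6.12% higher. The looser call, named list criteria here, takes the limits the study set for its gene ontology list, there with p-values from edgeR. They were an unadjusted p under 0.05 and an adjusted p under 0.4. A mean above 5 FPKM in either group and a change of the group mean beyond 0.5 on the log2 scale were also needed. For significantly changed genes the study set a false discovery rate under 0.05 and a mean above 1 FPKM in either group. By the list criteria 5 of the 9 members tested passed, 4 lower and 1 higher, where 8.22% of all genes tested did. The mean above 5 FPKM that these criteria need was reached by 9095 of the 14739 genes, and by neither Cd28 nor Havcr2. The number of members that passed was also lower without Brg1-sufficient library 2 (3) and with no filter on low FPKM (2). All genes passing numbered 1212 with the 4 libraries, 1416 and 397 in those fits, and 153 and 99 without Brg1-deficient libraries 1 and 2. In 8 of the 9 members tested, both libraries of one group lay above both of the other, 5 of them lower and 3 higher in Brg1-deficient ILC3s. The same was so in 44.6% of all genes tested, 20.2% lower and 24.4% higher. The median log2 fold change was -0.66 over the 9 members tested and 0.028 over all genes tested. For one gene, the smallest two-sided p that exact permutation of 2 against 2 libraries allows is 0.33.

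Smarca4 measured 17.1 and 16.7 FPKM in Brg1-sufficient samples versus 9.98 and 9.03 FPKM in Brg1-deficient samples, where its mean was 56.2% of the Brg1-sufficient mean. Of 12 ILC3 marker genes all 12 were above the limit for testing. By the list criteria 2 of them were lower and 1 was higher in Brg1-deficient ILC3s, against 4.37% lower and 3.85% higher of all genes tested. The file holds no read counts, so the depth of each library is unknown, and between 30046 and 36929 genes were listed above 0 FPKM. The sorted values were almost the same in the 4 libraries: 99.3% of the 13693 ranks with a mean above 1 FPKM differed by less than 1%. A difference in total RNA between the groups therefore cannot be seen in these values.

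**Figure D2:**
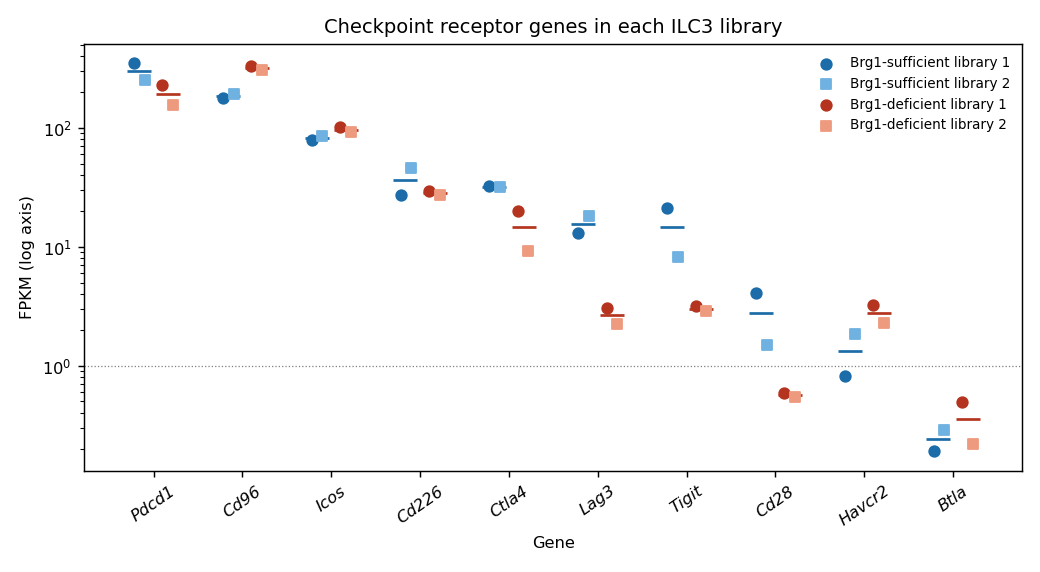
FPKM of the 10 receptor genes on a log axis (y axis), by gene (x axis), with 1 point per library and a short line at each group mean. The dotted line marks 1 FPKM. Lag3 lay between 13.2 and 18.0 FPKM in Brg1-sufficient libraries and between 2.25 and 3.04 FPKM in Brg1-deficient ones, while both Cd96 values were higher in Brg1-deficient libraries.

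Several of the genes are near each other in the genome. Cd28, Ctla4 and Icos are 3 neighbouring genes on chromosome 1 of GRCm38, between 60716800 and 61000320, with no other protein-coding gene between them. Pdcd1 lies on the same chromosome from 94038305 to 94052553. Tigit (43648867 to 43664146), Btla (45224315 to 45257670) and Cd96 (46035657 to 46120251) are on chromosome 16, within a stretch of 2471 kb that holds 35 protein-coding genes. Lag3 is on chromosome 6 from 124904361 to 124911705 and Havcr2 on chromosome 11 from 46454935 to 46481255. Positions are from GENCODE M21.

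RefSeq promoter sequences of GRCm38.p6 matched 6 of the 10 genes, Pdcd1, Ctla4, Tigit, Havcr2, Btla and Cd96. The bases before the RefSeq start are shown for the 4 of them that passed the list criteria, 3 lower and 1 higher, 5′ to 3′ on the strand of the gene, without any base in a GENCODE exon. Capitals mark matches, on either strand, to 5 short motifs: AP-1 (TGANTCA), Runx (TGTGGT), T-box (GGTGTGA), ROR (AGGTCA) and NFAT (GGAAAA).
Pdcd1, chr1:94052554-94052803, minus strand: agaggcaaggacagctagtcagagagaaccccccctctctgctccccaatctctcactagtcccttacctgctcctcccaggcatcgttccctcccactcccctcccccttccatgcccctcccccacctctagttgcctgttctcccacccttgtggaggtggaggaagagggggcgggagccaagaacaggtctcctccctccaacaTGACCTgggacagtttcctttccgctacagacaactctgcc
Ctla4, chr1:60908775-60909024, plus strand: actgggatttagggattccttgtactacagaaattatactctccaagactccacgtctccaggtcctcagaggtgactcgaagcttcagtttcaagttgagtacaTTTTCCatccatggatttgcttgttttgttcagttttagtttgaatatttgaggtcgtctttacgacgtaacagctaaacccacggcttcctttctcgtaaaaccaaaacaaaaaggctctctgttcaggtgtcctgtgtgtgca
Tigit, chr16:43664185-43664434, minus strand: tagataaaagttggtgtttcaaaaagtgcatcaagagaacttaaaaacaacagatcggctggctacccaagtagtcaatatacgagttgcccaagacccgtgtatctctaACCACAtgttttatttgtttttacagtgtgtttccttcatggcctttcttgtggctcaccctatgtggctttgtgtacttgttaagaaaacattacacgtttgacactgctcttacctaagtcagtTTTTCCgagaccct
Cd96, chr16:46120252-46120498, minus strand: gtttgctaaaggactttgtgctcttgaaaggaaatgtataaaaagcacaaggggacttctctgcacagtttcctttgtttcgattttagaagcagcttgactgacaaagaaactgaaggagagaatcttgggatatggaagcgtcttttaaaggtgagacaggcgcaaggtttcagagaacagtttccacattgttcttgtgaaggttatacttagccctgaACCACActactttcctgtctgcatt
The window of Ctla4 lies inside the longer gene model of GENCODE, outside its exons. The ROR letters were found in the windows of Pdcd1, 41 bases before the start, and of Havcr2, and are present in 14% of the 32851 promoters of the table when the 250 bases before the start are searched. The NFAT letters were found in the windows of Ctla4 and Tigit and in 20.4% of all promoters. The Runx letters were found in those of Tigit, Cd96, Havcr2 and Btla, at 140 bases before the start in Tigit and 28 in Cd96, and in 14% of all promoters. The AP-1 letters (6.75% of all promoters) were found in the window of Havcr2, and the T-box letters (3.33%) in none of the 6 windows. No motif overlapped another in the windows shown. These are matches of letters and no evidence of binding.

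Lag3, an inhibitory receptor that binds MHC class II, measured 13.2 and 18.0 FPKM in Brg1-sufficient samples versus 3.04 and 2.25 FPKM in Brg1-deficient samples. Both Brg1-deficient values were below both Brg1-sufficient values, and the mean was 5.90 times lower. The log2 fold change was -2.18 (standard error 0.242, 95% interval -2.79 to -1.57), with an adjusted p of 0.0548 from limma with Benjamini-Hochberg adjustment. Of the members, Lag3 had the lowest adjusted p. The adjusted p was 0.0325 when only genes with a mean above 5 FPKM were tested, and the range over all 11 alternatives of processing or left-out libraries was 0.0038 to 0.44. Lag3 passed the list criteria except without Brg1-deficient library 2 (adjusted p = 0.44, log2 fold change -2.02). In these bulk libraries, fewer cells that carry a transcript and less of it per cell cannot be told apart.

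Tigit had 21.3 and 8.17 FPKM in the Brg1-sufficient pair of libraries, against 3.16 and 2.87 FPKM in the Brg1-deficient pair. Brg1-sufficient library 1 stood high, and the Brg1-deficient libraries were almost equal to each other. The mean was 4.89 times lower in Brg1-deficient ILC3s, with the change in log2 at -1.83 (standard error 0.432, 95% interval -2.92 to -0.75, adjusted p = 0.184 from limma). Without Brg1-sufficient library 1 the log2 fold change was -1.19. The list criteria were not met without Brg1-deficient library 1 (adjusted p = 0.687) or library 2 (adjusted p = 0.71), nor with no filter on low FPKM (adjusted p = 0.449).

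Ctla4 measured 32.4 and 31.9 FPKM in Brg1-sufficient samples versus 20.0 and 9.18 FPKM in Brg1-deficient samples. The groups did not overlap, but the 2 Brg1-deficient values were far apart. On the log2 scale the change was -1.18 (standard error 0.35, 95% interval -2.06 to -0.30, adjusted p = 0.266 from limma). It was -0.66 without Brg1-deficient library 2, and Ctla4 met the list criteria in 1 of the 4 fits that left out a library, the one without Brg1-deficient library 1 (-1.70). Nor were the criteria met with no filter on low FPKM.

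Pdcd1, which encodes PD-1, was the most abundant of the 10 in both Brg1-sufficient libraries, at 349.6 and 256 FPKM, above 98.4% and 97.7% of all genes tested. In the Brg1-deficient libraries Pdcd1 had 229.7 and 156 FPKM, still above 97.3% and 95.8% of the genes. The lowest Brg1-sufficient and the highest Brg1-deficient value were close to each other. The log2 fold change was -0.66 (standard error 0.251, 95% interval -1.29 to -0.026, adjusted p = 0.379 from limma), and the mean of Brg1-deficient libraries was 63.7% of that of the others. Pdcd1 met the list criteria in none of the fits that left out a library, in which the log2 fold change lay between -0.94 (without Brg1-deficient library 1) and -0.38 (without Brg1-deficient library 2). Nor did it meet them in limma without trend (adjusted p = 0.474) or with no filter on low FPKM (adjusted p = 0.783).

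Havcr2 and Btla were low in these cells. Havcr2, which encodes the inhibitory receptor TIM-3, had 0.82 and 1.86 FPKM in the Brg1-sufficient pair of libraries, against 3.26 and 2.27 FPKM in the Brg1-deficient pair. The Brg1-deficient values were the higher ones, with the change in log2 at 0.71 (standard error 0.352, 95% interval -0.18 to 1.60, adjusted p = 0.492 from limma), which passed neither call. Btla measured 0.19 and 0.29 FPKM in Brg1-sufficient samples versus 0.49 and 0.22 FPKM in Brg1-deficient samples. Its groups overlapped, and it was the one member below the limit of 1 FPKM for testing.

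**Figure D3:**
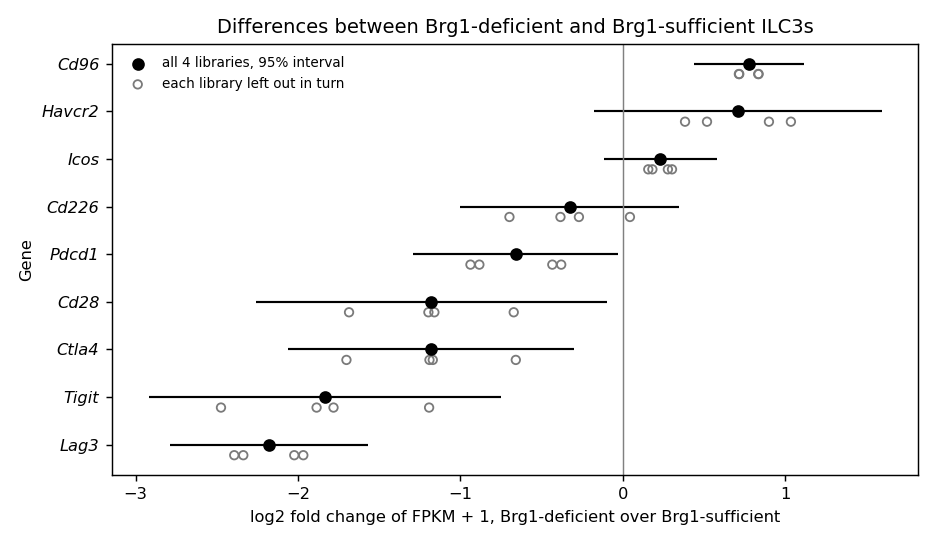
Log2 fold change of FPKM + 1 in Brg1-deficient over Brg1-sufficient ILC3s (x axis) for the 9 members tested (y axis). Filled points with lines are the limma estimates from 4 libraries with their 95% intervals, and open points leave out 1 library each. The open points lay on 1 side of 0 for every gene but Cd226, from -0.70 to 0.045. For the other genes this had to be so, since their groups did not overlap.

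Cd96 was the highest member in both Brg1-deficient libraries, where it was at 333 and 307 FPKM. With 178 and 194 FPKM in the Brg1-sufficient libraries it was second to Pdcd1 in each, so the order of these 2 genes was the opposite in the 2 groups. Libraries of one group were close to each other, and the groups were far apart. The mean was 1.72 times higher in Brg1-deficient ILC3s. Cd96 had a log2 fold change of 0.78 (standard error 0.134, 95% interval 0.44 to 1.11, adjusted p = 0.108 from limma), and estimates from 3 of the 4 libraries lay between 0.72 and 0.84. Cd96 did not meet the list criteria without Brg1-deficient library 1 (adjusted p = 0.486) or library 2 (adjusted p = 0.44).

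Cd226, the activating receptor of the CD155 group (chromosome 18, 89176967 to 89272229), had 27.3 and 46.3 FPKM in the Brg1-sufficient pair of libraries, against 29.4 and 27.1 FPKM in the Brg1-deficient pair. Brg1-sufficient library 2 stood high, and the groups overlapped. On the log2 scale the change was -0.33 (standard error 0.268, 95% interval -0.9999 to 0.35, adjusted p = 0.647 from limma). It was 0.045 without Brg1-sufficient library 2 and -0.70 without library 1, where Cd226 met the list criteria (adjusted p = 0.307).

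Icos, the co-stimulatory receptor best known from follicular helper T cells and group 2 innate lymphoid cells, was the third most abundant member in every library. It measured 79.7 and 85.3 FPKM in Brg1-sufficient samples versus 102 and 92.1 FPKM in Brg1-deficient samples, above 91.2% to 93.3% of all genes tested. The groups did not overlap but were close, with the change in log2 at 0.23 (standard error 0.138, 95% interval -0.12 to 0.58, adjusted p = 0.566 from limma). Cd28 had 4.05 and 1.5 FPKM in the Brg1-sufficient pair of libraries, against 0.59 and 0.55 FPKM in the Brg1-deficient pair. All 4 values were low, and the Brg1-deficient ones were the lowest. The log2 fold change of Cd28 was -1.18 (standard error 0.43, 95% interval -2.26 to -0.10, adjusted p = 0.362 from limma) and it went to -0.67 without Brg1-sufficient library 1 and to -1.94 with a pseudocount of 0.1. Its means were below the 5 FPKM of the list criteria. Within the cluster on chromosome 1, Cd28 and Ctla4 were thus at lower values in Brg1-deficient ILC3s, and Icos, next to Ctla4, was not.

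Receptors that share a ligand were also compared as ratios of FPKM within each library, and tested as differences of log2(FPKM + 1) between the 2 genes. The ratio of Cd96 to Tigit was 8.38 and 23.8 in Brg1-sufficient and 105 and 107 in Brg1-deficient ILC3s. It was higher in both Brg1-deficient libraries, by 2.61 on the scale of log2(FPKM + 1), which became 1.91 without Brg1-sufficient library 1 and 3.31 without library 2. The ratio of Cd226 to Tigit was 1.28 and 5.67 in Brg1-sufficient and 9.29 and 9.43 in Brg1-deficient ILC3s, a log2 difference of 1.51, which became 0.49 without Brg1-sufficient library 1 and 2.52 without library 2. The ratio of Cd226 to Cd96 was 0.153 and 0.239 in Brg1-sufficient and 0.0882 and 0.0882 in Brg1-deficient ILC3s, a log2 difference of -1.10. In each of these 3 pairs the groups did not overlap, and the exact two-sided permutation p on the log2(FPKM + 1) scale was 0.33, the smallest that 2 against 2 libraries can give, before any adjustment over the 4 pairs. The ratio of Cd28 to Ctla4 was 0.125 and 0.0471 in Brg1-sufficient and 0.0295 and 0.0599 in Brg1-deficient ILC3s. These FPKM ratios overlapped, and Cd28 was below Ctla4 in every library. On the log2(FPKM + 1) scale the groups differed by 0.0016 (exact permutation p = 1).

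**Figure D4:**
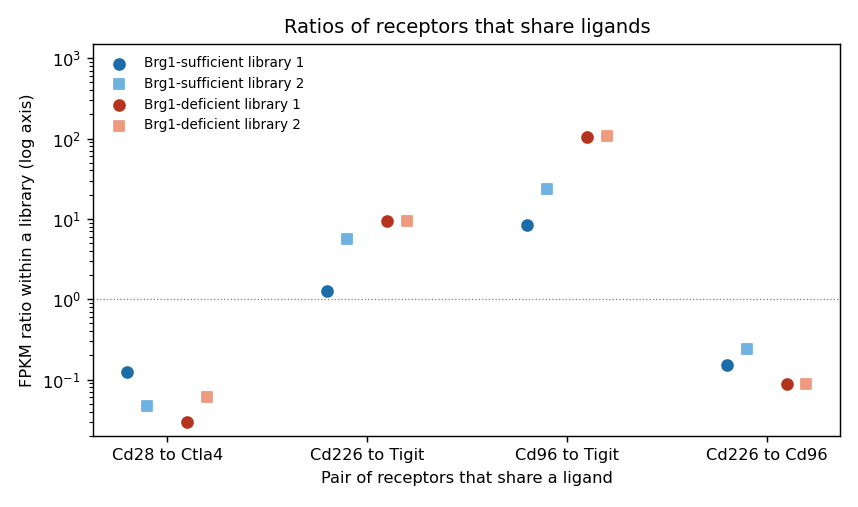
Ratio of FPKM within each library on a log axis (y axis) for 4 pairs of receptors that bind the same ligands (x axis), with 1 point per library. The dotted line marks equal levels. The ratio of Cd96 to Tigit was 8.38 and 23.8 in Brg1-sufficient and 105 and 107 in Brg1-deficient libraries.

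Among 16 genes listed as ligands of these or related receptors, 9 were tested, with a median log2 fold change of 0.0073. Of these, 0 passed an adjusted p under 0.05 or the list criteria, which 0.305% and 8.22% of all genes tested passed. The list left out MHC class II, which LAG-3 binds. An MHC class II gene, H2-Ab1, was on the myeloid and dendritic list and was lower by the list criteria. H2-Ab1 had 273 and 272 FPKM in Brg1-sufficient and 112 and 212 FPKM in Brg1-deficient libraries (log2 fold change -0.81, adjusted p = 0.367 from limma). Pvr, which encodes CD155, measured 12.6 and 10.1 FPKM in Brg1-sufficient samples versus 16.5 and 10.1 FPKM in Brg1-deficient samples, and was named here after its values were seen, as was Cd274. Cd274, which encodes the PD-1 ligand PD-L1, had 21.4 and 20.2 FPKM in the Brg1-sufficient pair of libraries, against 19.92 and 21.95 FPKM in the Brg1-deficient pair. Lgals9, which encodes galectin-9, a ligand of TIM-3, was at 77.0 and 66.9 against 55.1 and 51.6 FPKM (Brg1-sufficient values first, here and in what follows), a change of -0.42 in log2 (limma, adjusted p = 0.341). Icosl, the ligand of ICOS, was at 12.8 and 14.7 against 10.1 and 9.73 FPKM (log2 fold change -0.43, adjusted p = 0.397 from limma). Both had groups that did not overlap, but their change was below 0.5 on the log2 scale of the list criteria. Lgals3, which encodes galectin-3, was at 16.9 and 39.9 against 10.2 and 17.2 FPKM, with overlapping groups and a log2 fold change of -0.92. Hmgb1, the most abundant gene of the list, also had overlapping groups. The table gives transcripts of the sorted cells and no ligand levels in the surrounding tissue.

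Of 18 further genes in the table, most of them co-signalling receptors, 17 were tested and 0 passed an adjusted p under 0.05, against 0.305% of all genes tested. By the list criteria 3 were lower and 2 higher, against 4.37% lower and 3.85% higher of all genes tested. The median log2 fold change of the list was -0.25. Cd160, a receptor that shares the ligand HVEM with BTLA, measured 111 and 178 FPKM in Brg1-sufficient samples versus 297 and 335 FPKM in Brg1-deficient samples. Both Brg1-deficient values were above both others, with a change of 1.16 in log2 (limma, adjusted p = 0.153). Klrg1, an inhibitory receptor that binds cadherins, had 42.2 and 11.0 FPKM in the Brg1-sufficient pair of libraries, against 1.64 and 2.19 FPKM in the Brg1-deficient pair. Its log2 fold change was -2.97 (adjusted p = 0.14 from limma). Crtam and Cd27 were the other lower genes by the list criteria, with log2 fold changes of -1.18 and -0.94, and Nt5e, which encodes the ectoenzyme CD73, was the other higher one, with 0.55. Cd101, Tnfrsf4 and Slamf6 were at lower levels in Brg1-deficient ILC3s without overlap, with log2 fold changes of -1.79, -1.43 and -0.78, but did not meet the list criteria. Tnfrsf18 and Tnfrsf9, with Cd160 the most abundant of these receptors, had overlapping groups.

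Among 27 genes listed for signalling below these receptors, 26 were tested, and 0 passed an adjusted p under 0.05, against 0.305% of all genes tested. By the list criteria 3 were lower and 1 was higher, against 4.37% lower and 3.85% higher of all genes tested. The median log2 fold change of the list was -0.029. Lck, the Src family kinase that phosphorylates receptor tails, measured 57.5 and 47.5 FPKM in Brg1-sufficient samples versus 23.8 and 21.8 FPKM in Brg1-deficient samples (log2 fold change -1.16, adjusted p = 0.0843 from limma). Fyn, a kinase of the same family, was at 14.6 and 11.0 against 6.37 and 3.91 FPKM (log2 fold change -1.18, adjusted p = 0.181 from limma). Pag1, an adaptor that brings the inhibitory kinase CSK to the membrane, had a log2 fold change of -0.84. Ptpn6, which encodes SHP-1, a phosphatase of inhibitory receptors, was at 54.0 and 79.8 against 99.9 and 105.6 FPKM, with a change of 0.64 in log2 (limma, adjusted p = 0.326). Trat1 was at lower FPKM without overlap (-0.77), below the limit of 5 FPKM. Pdcd4, Lcp2 and Zap70 were the most abundant genes of this list, at log2 fold changes of -0.40, 0.20 and 0.30, and passed neither call. Pdcd4 is on the list but is not known to act below these receptors.

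Of 20 transcription factor genes linked to the expression of checkpoint receptors, 18 were tested, and 0 passed an adjusted p under 0.05. By the list criteria 3 were lower and 1 was higher, and the median log2 fold change was -0.20. Tbx21, which encodes T-bet, had 4.21 and 6.04 FPKM in the Brg1-sufficient pair of libraries, against 1.28 and 0.90 FPKM in the Brg1-deficient pair. Tox2 was at 29.4 and 40.5 against 18.1 and 19.1 FPKM (log2 fold change -0.86, adjusted p = 0.181 from limma), and Bcl6 had a log2 fold change of -0.72. Batf, an AP-1 family factor, was at 91.3 and 112 against 155 and 150.0 FPKM, a change of 0.59 in log2 (limma, adjusted p = 0.223). Prdm1 was at lower FPKM without overlap (-0.97) but its means were below 5 FPKM. Nr4a1, Id2 and Tcf7, the most abundant of the list, had log2 fold changes of 0.22, -0.27 and 0.21 and passed neither call. Over the 4 lists, 70 genes were tested, 0 passed an adjusted p under 0.05 and 13 met the list criteria, 9 lower and 4 higher. Of all genes tested, 0.305% passed that adjusted p and 8.22% met the list criteria, 4.37% lower and 3.85% higher. The count of 13 did not hold in the fits without either Brg1-deficient library, where fewer of all genes met the criteria too.

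**Figure D5:**
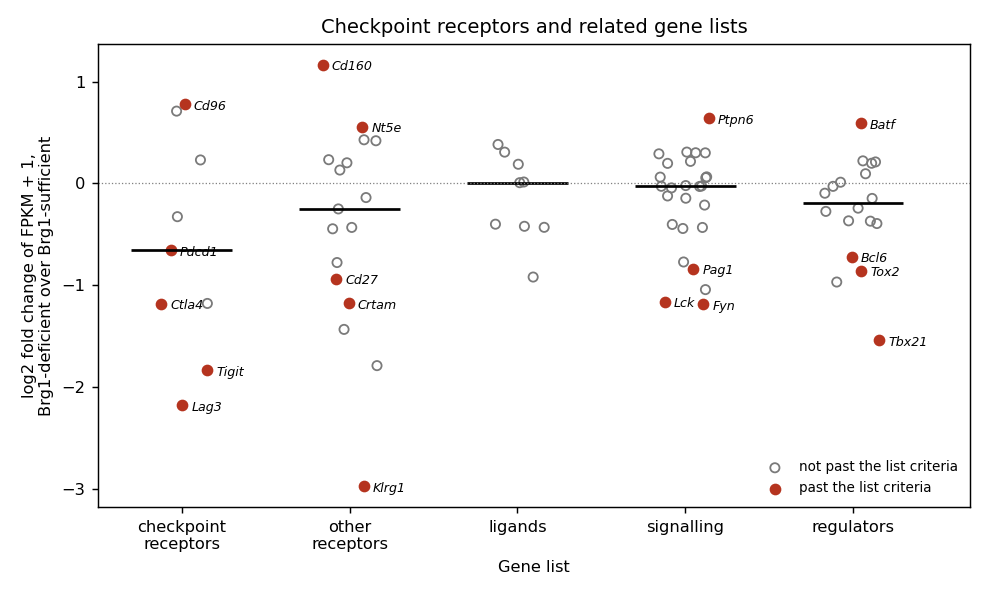
Log2 fold change of FPKM + 1 in Brg1-deficient over Brg1-sufficient ILC3s (y axis) for the tested checkpoint receptors and the tested genes of 4 related lists (x axis). Filled points met the list criteria and carry the gene name, and horizontal lines are medians. The median was -0.66 for the checkpoint receptors and between -0.25 and 0.0073 for the other lists.

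Genes listed as markers of ILC subsets or other cell types differed between the same libraries. Bulk values do not show which cells carried them, and ILC3s may be among these cells. Of 12 marker genes of NKp46+ ILCs, ILC1s and natural killer cells, 10 were tested, and 4 were lower and 2 higher by the list criteria. Of all genes tested, 4.37% were lower and 3.85% higher by these criteria, and 0.305% passed an adjusted p under 0.05. Ncr1, which encodes NKp46, measured 31.3 and 35.5 FPKM in Brg1-sufficient samples versus 5.37 and 6.02 FPKM in Brg1-deficient samples, and Ifng was at 22.8 and 37.3 against 3.42 and 3.22 FPKM. Both passed an adjusted p under 0.05 in limma, as did Trbc1 and Cd79b of the lists that follow. The summed level of this list was 381 and 482 FPKM in Brg1-sufficient and 660 and 492 FPKM in Brg1-deficient ILC3s, with Gzma the largest part in the latter (397 and 218 FPKM). Of 11 ILC2 marker genes 10 were tested, and 6 were lower and 1 higher, with sums of 1233 and 831 against 838 and 626 FPKM. Calca, an ILC2 marker, was at 113 and 15.9 FPKM in Brg1-sufficient libraries 1 and 2 but at 0.88 and 0.58 FPKM in both Brg1-deficient ones, and Ccr8 was at 51.7 and 8.41 against 0.23 and 0.24 FPKM. Of the members, Tigit, Cd28, Pdcd1 and, by little, Ctla4 were higher in Brg1-sufficient library 1 than in library 2. Lag3, Cd226, Cd96, Icos, Havcr2 and Btla were lower in library 1. Of the 11 ILC2 markers, only Areg and Hpgds were lower in Brg1-sufficient library 1 than in library 2, and the others were higher there. Areg was at 26.7 and 58.7 against 16.4 and 11.3 FPKM, and Hpgds at 2.31 and 6.61 against 20.6 and 19.9 FPKM. Of 11 T cell genes 8 were tested and 5 were lower, with sums of 431 and 269 against 121 and 112 FPKM, of which Trbc1 gave 110.4 and 62.5 against 10.6 and 10.3 FPKM. Cd3e was at 8.95 and 7.02 against 1.01 and 3.08 FPKM, while Cd8a and Foxp3 stayed at or below 1.47 and 0.36 FPKM in every library. Of 12 myeloid and dendritic genes 10 were tested and 4 were lower. The sums were 1431 and 1477 against 424 and 939.5 FPKM, most of it Cd74 (1014 and 940 against 223 and 505 FPKM). Lyz2, also among the most abundant of this list, had overlapping groups at 84.1 and 203 against 64.4 and 192 FPKM. Of 6 B cell genes only Cd79b was tested, at 8.68 and 10.02 against 1.03 and 0.99 FPKM. Of 7 epithelial genes 3 were tested and 1, Krt18, was higher, with sums of 5.42 and 6.87 against 20.0 and 17.2 FPKM. Of the genes of these lists, none was listed at 0 in all 4 libraries. Neither the donors nor the hosts form mature T or B cells, so the T and B cell genes do not count such cells. Which cells carried the transcripts of these lists, and their part in the values of the receptor genes, was not tested.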

How the data were processed

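RNA of 4 libraries was measured, 2 from ILC3s of Brg1-sufficient and 2 of Brg1-deficient donor origin, grouped by the sample titles. The authors made single-end libraries (read length 90 bp per the labels), mapped reads to GRCm38.p5 with STAR 2.5, quantified genes with RSEM 1.2 on GENCODE M16 and deposited the FPKM of each gene. Columns were matched to samples by genotype code and number. The sorted values are nearly equal between libraries, as quantile normalization would give, a step not given in the sources used here. Counts and depth are unknown, so no counting interval was computed. The p-values rest only on the spread between 2 libraries per group, which limma draws toward a trend over all genes tested.

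Log2(FPKM + 1) was fitted with limma 3.58.1 in R 4.3.3 (lmFit, eBayes with trend) over the 14739 genes with a mean above 1 FPKM in either group, with Benjamini-Hochberg adjustment. All 10 members were named. From the 4 related lists, genes with an unadjusted p under 0.05 and no overlap and the 3 most abundant were named. From the marker lists, named genes were taken from the 3 most abundant, those past the list criteria, and some others chosen after their values were seen (Cd8a and Foxp3). The members and lists were chosen with earlier results of these data known. The fit was tested on simulated data. Alternatives were a replicate block, a pseudocount of 0.1, no filter or one at 5 FPKM, no trend, quantile normalization, equal library totals and leaving out each library. A listed symbol with several rows was read from the row with the highest mean. Promoters are from RefSeq. Protein motifs were planned but not analysed here. The Cre driver and 2 marker genes are not reported here.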

Additional observations from a re-analysis of the deposited data

How the results depend on the processing

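At an adjusted p under 0.05 from limma, the number of members passing went from 0 to 2 when the library number entered the fit as a replicate block (Lag3 at log2 fold change -2.18, adjusted p = 0.0038, and Tigit at -1.83, adjusted p = 0.0167) and to 1 with the filter at a mean FPKM above 5 (Lag3 at -2.18, adjusted p = 0.0325). The number of related-list genes went from 0 to 4 with the block and to 1 with that filter, and that of all genes from 45 to 398 (248 lower, 150 higher) and to 114 (73 lower, 41 higher). It was 0 for all genes with no filter and with limma without trend (2708 and 1868 genes at an unadjusted p under 0.05), and 0 without each library in turn. Neither the labels nor the study says that the numbers pair the libraries, and deviations of same-numbered libraries correlated at -0.00039 across genes. With the block, no member other than Lag3 and Tigit passed an adjusted p under 0.05, and the same 5 members met the list criteria. By the list criteria, no filter gave 2 members in place of 5 (Cd96 and Lag3), 4 related-list genes in place of 13 and 397 genes in place of 1212, with 44235 genes in the adjustment. Without one library each, these counts ranged from 0 to 4, from 0 to 15 and from 99 to 1416. A lone library of a group was then assumed to vary like the other group. The log2 fold change of Cd226 ranged from -0.70 to 0.045 when each library was left out, with its sign reversed without Brg1-sufficient library 2. The difference of the Cd28 to Ctla4 ratio, 0.0016 on the log2 scale, was -0.71 with a pseudocount of 0.1 and ranged from -0.50 to 0.50 without one library each. The 8 members other than Cd226 that were tested kept their direction under every alternative in which they passed the filter. This says little, since their groups did not overlap and leaving out a library could therefore not reverse them. The block, the trend and the filter do not change a log2 fold change. Btla was fitted once, with no filter. Apart from the numbers of genes tested, the cause of these shifts was not tested. The low levels of Btla, Cd28 and Havcr2 and the unknown depth limit what can be said of these genes.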
